A study of Mus musculus with 24 samples.

Results

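The genes of 10 transcription factors that bind CpG-rich promoters in most cell types were followed across the RNA-seq libraries of the study: Nrf1, the NF-Y subunit genes Nfya, Nfyb and Nfyc, the CREB family genes Creb1, Crem and Atf1, and the genes Zbtb14, Sp1 and Yy1. They were chosen by name, and they are 10 of the 51912 genes in the count tables. The study asked which transcription factors can bind methylated DNA and lower its methylation, and RNA-seq gave the transcript level of the factors in the cells used. The 9 libraries fall into 3 groups of 3. ESCs are wild type TC-1 mouse embryonic stem cells of mixed C57BL/6 X 129S5 strain, grown with the cytokine LIF. NPs are neuronal progenitors derived from the same wild type ESCs, which were grown as cellular aggregates and treated with retinoic acid. TET TKO ESCs lack all TET dioxygenases (TET1/2/3 triple knockout) and come from another line, of mixed C57BL/6 X 129/sv strain, so that knockout, line and strain cannot be told apart in the comparison with ESCs. The study's methods call the RNA-seq replicates biological, but neither they nor the labels say whether the libraries of a group came from separate cultures. The p-values measure only the spread between these libraries.

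The promoters of most widely used genes are CpG islands, and a small set of sequence-specific activators recognises short elements in them. NRF1 binds a palindrome rich in GC and activates genes of mitochondrial function, NF-Y is a trimer of the NFYA, NFYB and NFYC proteins that binds the CCAAT box, and CREB1, CREM and ATF1 form dimers with each other on the cAMP response element. SP1 binds GC boxes, YY1 binds sites with an ATGG core and can activate or repress, and ZBTB14 (also named ZF5 or ZFP161) is a zinc finger protein of GC-rich promoters. Binding of NRF1 and of CREB1 is known to be hindered by methylation of the CpG inside their motifs.

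Total counts per library were 20519702 to 23976914 in ESCs and NPs and 80704741 to 93210102 in TET TKO ESCs. The labelled cell types were borne out by their markers: all 7 ESC markers tested were lower and all 7 neural progenitor markers higher in NPs than in ESCs at an adjusted p under 0.05. The summed level of the ESC markers was 57.4 to 73.8 RPKM in NPs, against 2288 to 2381 RPKM in ESCs and 2383 to 3164 RPKM in TET TKO ESCs, where Dppa5a rose (956 to 1508 RPKM) while Klf4 (72.2 to 37.6 RPKM) and Esrrb (155 to 102 RPKM) fell. NPs also held more RNA of 4 of 4 tested endoderm markers, with a sum of 18.7 to 22.9 RPKM against 1.07 to 1.83 RPKM in ESCs. Tet1 and Tet2, which are targeted in the knockout, fell from 65.1 to 13.5 RPKM and from 19.0 to 2.48 RPKM in the knockout, while Tet3 had a mean of 0.715 RPKM in ESCs and 0.551 RPKM in TET TKO ESCs and was not tested there. In NPs Tet1 and Tet2 averaged 4.17 and 3.30 RPKM, and Tet3 averaged 7.82 RPKM. Of 5 neuron markers 3 were higher in NPs (Dcx, Map2 and Elavl4) and 1 was lower (Stmn2, 56.1 to 7.58 RPKM). The mesoderm gene Hand1 rose from 0.504 to 9.89 RPKM in TET TKO ESCs, whereas T fell from 0.787 to 0.202 RPKM and Tbx6 did not pass. RPKM here are reads per kilobase of exon relative to the TMM-scaled library size, computed from the counts.

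In the 250 bases before 1 RefSeq start site each of the 9 genes other than Crem, the number of CpGs was 11 at Sp1 to 36 at Yy1, with a median of 26, against a median of 6 over 32851 mouse promoters. The sequences before Atf1 and Sp1, the genes that fell most in NPs, and before Nrf1, whose level was close to constant, are shown because they carry letters recognised by other factors of the set. They are plus strand sequence of RefSeq GRCm38.p6, end before the first base of the deposited gene model, and have in capitals the GC box (GGGCGG), the CCAAT box (CCAAT) and the YY1 site (GCCATNTT), each searched on both strands.
Atf1, chr15:100227609-100227818: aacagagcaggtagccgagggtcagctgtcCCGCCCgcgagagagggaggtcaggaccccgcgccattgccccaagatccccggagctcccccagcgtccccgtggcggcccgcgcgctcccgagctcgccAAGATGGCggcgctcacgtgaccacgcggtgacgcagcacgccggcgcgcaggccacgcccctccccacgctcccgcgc
Sp1, chr15:102406066-102406142: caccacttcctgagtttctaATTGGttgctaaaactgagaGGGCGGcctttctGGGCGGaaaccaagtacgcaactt
Nrf1, chr6:30047738-30047987: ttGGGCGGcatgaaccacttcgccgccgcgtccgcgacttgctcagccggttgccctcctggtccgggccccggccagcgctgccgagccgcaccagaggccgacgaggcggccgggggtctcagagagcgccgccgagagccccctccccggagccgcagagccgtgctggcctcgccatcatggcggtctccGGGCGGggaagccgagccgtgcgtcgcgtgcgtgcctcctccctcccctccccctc

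A GC box was found in the 250 bases of 8 of the 9 genes and in 32.7% of all promoters, and the Sp1 promoter itself held 4 of them. The GC box holds a CpG, and the 9 genes had a median of 26 CpGs against 6 over all promoters. A comparison with promoters of like CpG number was not made. A CCAAT box was found in 1 of the 9, Sp1, which held 3, and in 33.8% of all promoters. The third CCAAT box of Sp1 shares bases with a GC box. The CCAAT boxes that begin 137 and 84 bases before the RefSeq start of Sp1 lie inside the deposited gene model and are not shown. The same holds for its GC boxes at 81 and 62 bases and for the GC box of Atf1 at 31 bases. A YY1 site was found in 1 of the 9, Atf1, and in 3.91% of all promoters. The palindromic cAMP response element (TGACGTCA) and the NRF1 site were found in 0 of the 9, and in 1.55% and 0.782% of all promoters. These are matches of letters and not measured binding sites.

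All 10 genes were transcribed in every group, with a mean log2(1 + RPKM) of at least 1, and all 10 passed the filter on low values in both comparisons. In ESCs Sp1 was the highest at 44.6 ± 1.11 RPKM (mean ± SD, n = 3), above 90.0% of the 12385 genes with at least 1 RPKM. Atf1 followed at 20.7 ± 2.23 RPKM and Yy1 at 19.4 ± 0.113 RPKM, and their ranges overlapped. Nfyb had 16.9 ± 0.592, Nfya 12.2 ± 0.0587, Nfyc 10.7 ± 1.39 and Nrf1 8.04 ± 0.349 RPKM, and no neighbours among these overlapped. Zbtb14 (3.62 ± 0.316 RPKM) and Creb1 (3.46 ± 0.330 RPKM) overlapped, and Crem was the lowest at 1.35 ± 0.0813 RPKM, above 7.06% of the expressed genes. Low and high transcript levels were thus both found among these factors.

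**Figure D1:**
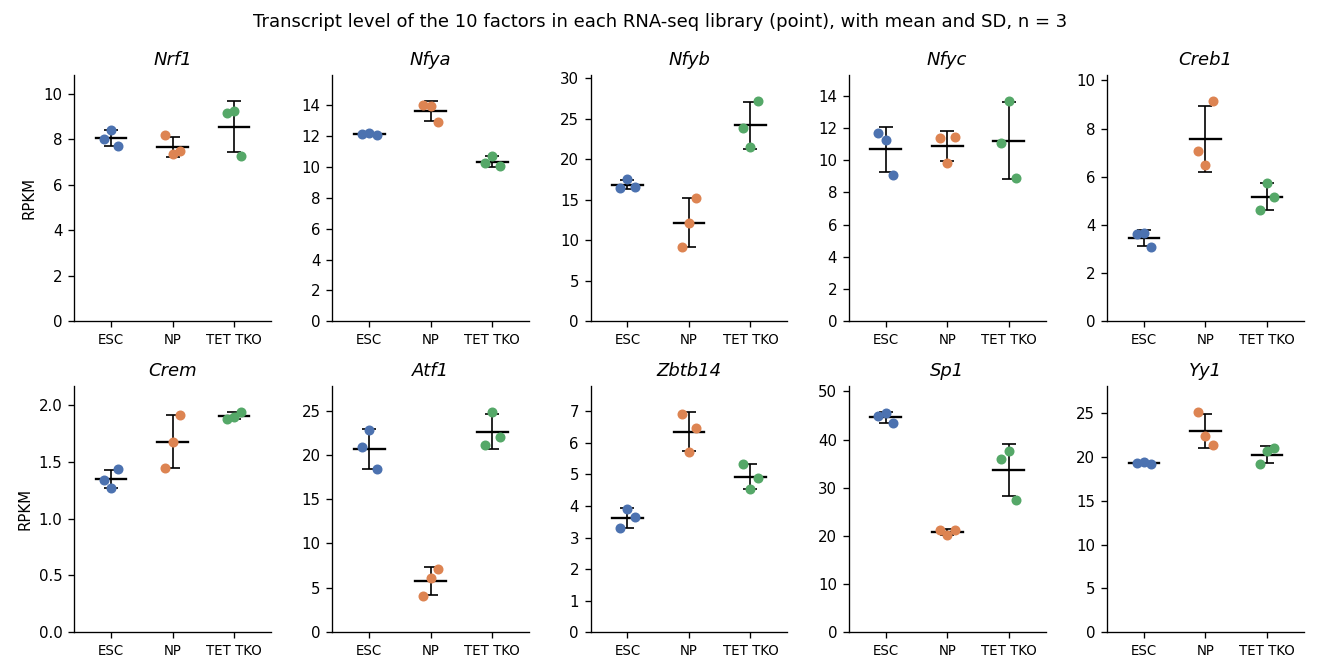
Transcript level of each factor gene on a linear RPKM axis in the groups ESC, NP and TET TKO; points are the 3 libraries of a group, horizontal lines the means and error bars the SD. Atf1 and Sp1 are lower in NPs than in both ESC groups, Creb1 and Zbtb14 are higher, and the 3 groups of Nrf1 and Nfyc overlap.

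The levels depend on how much of a gene the reads can be placed on. The reads were 50 bases long, and of the 50-base windows in the exons of Nfyc, Zbtb14 and Atf1, 43.2%, 42.6% and 28.4% also occur elsewhere in the GRCm38 assembly, whereas for the other 7 genes the share was 0 to 3.77%. Reads from repeated windows have no single place, and the deposited counting command did not ask for reads with several places. Counted per kilobase of windows found once, the ESC level was 23.99 for Nfyc, 33.8 for Atf1 and 6.70 for Zbtb14, and Nfyc rose from rank 6 to rank 3. The same windows are lost in every library, so the comparisons of a gene between groups do not use this length. The exons of 9 genes overlap those of no other gene, and Crem shares 103 bases (1.75% of its exons) with Gm6225 on the opposite strand, which had 0 to 12 counts per library.

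In NPs the order of the levels changed. Yy1 was the highest at 23.0 ± 1.94 RPKM, and Sp1 was second at 20.8 ± 0.613 RPKM, with no overlap between them. Nfya (13.6 ± 0.632), Nfyb (12.2 ± 3.03) and Nfyc (10.9 ± 0.906 RPKM) overlapped as neighbours. Nrf1 (7.67 ± 0.434), Creb1 (7.58 ± 1.38), Zbtb14 (6.36 ± 0.618) and Atf1 (5.77 ± 1.57 RPKM) overlapped as neighbours too, and Crem remained the lowest at 1.68 ± 0.234 RPKM. Per kilobase of windows found once, Nfyc took the first rank in NPs at 24.5, close to Yy1 at 24.4. In TET TKO ESCs Sp1 was again the highest by RPKM at 33.6 ± 5.43, whereas per kilobase of windows found once Atf1 (36.9 ± 3.21) was ahead of Sp1 (35.6 ± 5.74). By RPKM, Sp1 was followed by Nfyb (24.2 ± 2.86) and Atf1 (22.6 ± 1.97 RPKM), which overlapped, and Yy1 (20.3 ± 0.974 RPKM). Nfyc and Nfya overlapped there, as did Creb1 and Zbtb14, and Crem was the lowest at 1.91 ± 0.0309 RPKM.

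The comparison of NPs with ESCs asks which of the factors change when pluripotent cells become neuronal progenitors. Of the 10 genes, 5 differed at an adjusted p under 0.05 (edgeR's quasi-likelihood test, Benjamini-Hochberg adjustment over 15197 genes), against 64.1% of all genes tested. Of these, 2 were higher in NPs, Creb1 and Zbtb14 (background 32.9%), and 3 were lower, Atf1, Sp1 and Nfyb (background 31.2%). At the stricter limits of the study, a 3-fold change and an adjusted p under 0.001, 1 gene was called, Atf1, against 22.4% of all genes, and against 9.98% for calls in the lower direction. The median absolute log2 fold change was 0.39 for the 10 genes and 0.83 for all genes tested. The genes tested needed 1 RPKM in only 1 library, whereas all 10 factor genes had at least 1 RPKM in every library. Among genes expressed in that way the median span over the 3 groups was 0.78. Zbtb14, Nfyb, Creb1, Sp1 and Atf1 lay above it and the other factor genes below it. Whether a difference reflects fewer cells of a kind or less RNA per cell cannot be told apart in bulk RNA.

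Atf1 (ENSMUSG00000023027, chr15:100227819-100261244 on the plus strand, GRCm38), which encodes a CREB family activator of cAMP-responsive genes, fell most. Its level was 20.9, 22.8 and 18.4 RPKM in the ESC libraries and 4.05, 6.15 and 7.12 RPKM in the NP libraries, from 1359, 1525 and 1381 counts in ESCs and 264, 457 and 505 in NPs. Every NP library was below every ESC library. The log2 fold change was -1.84 (SE 0.217, adjusted p = 0.000124), a 3.58-fold lower level in NPs. When each library was left out in turn it ranged from -2.02 to -1.64.

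Creb1 (ENSMUSG00000025958, chr1:64532645-64604548 on the plus strand), the founding member of the family, moved the other way. Its level was 3.63, 3.66 and 3.08 RPKM in ESCs and 7.09, 6.51 and 9.14 RPKM in NPs, and the groups did not overlap. The log2 fold change was 1.13 (SE 0.163, adjusted p = 0.000374), a 2.20-fold higher level. Crem, whose products include both activators and repressors, had 1.34, 1.27 and 1.44 RPKM in ESCs and 1.45, 1.68 and 1.92 RPKM in NPs, a log2 fold change of 0.32 (95% interval -0.15 to 0.78, adjusted p = 0.203).

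The make-up of the CREB family is given next, as shares with no test. The summed level of its 3 genes was 25.5 ± 2.46 RPKM in ESCs, 15.0 ± 2.86 RPKM in NPs and 29.7 ± 2.52 RPKM in TET TKO ESCs. Atf1 took 80.8%, 82.2% and 80.3% of this sum in the ESC libraries and 32.2%, 42.9% and 39.2% in the NP libraries. Creb1 took 13.6% ± 0.442 in ESCs and 50.7% ± 5.46 in NPs, and Crem 5.35% ± 0.856 and 11.3% ± 0.614. Which gene was the larger in NPs depended on the length used: per kilobase of windows found once, Atf1 took 47.5% ± 5.75 and Creb1 42.0% ± 5.51 there, against 86.2% and 9.56% in ESCs. The shift of the shares from ESCs to NPs was in the same direction with both lengths. In NF-Y the largest share also depended on the length: by RPKM it was that of Nfyb in ESCs, and per kilobase of windows found once Nfyc took 43.6% and Nfyb 32.7% there, and 40.5% and 41.6% in TET TKO ESCs.

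**Figure D2:**
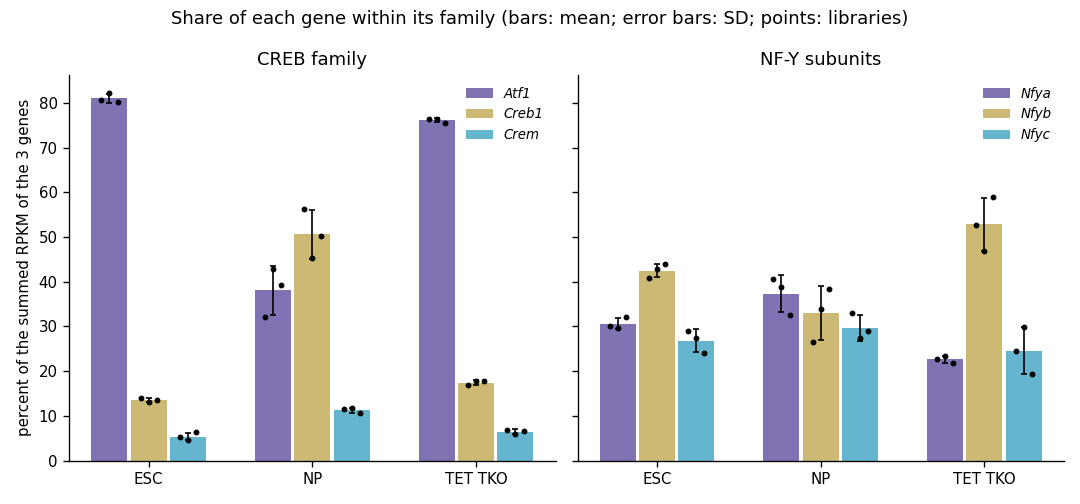
Percent of the summed RPKM of the 3 genes of the CREB family (left) and of the NF-Y subunits (right) taken by each gene in each group; bars are means, error bars SD and points the 3 libraries. The CREB family share of Atf1 is 38.1% in NPs, below 81.1% in ESCs and 76.1% in TET TKO ESCs, and Nfyb takes the largest NF-Y share by RPKM in ESCs and TET TKO ESCs.

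Sp1 (ENSMUSG00000001280, chr15:102406143-102436404 on the plus strand), the founding GC box factor, was at 44.8, 45.6 and 43.4 RPKM in ESCs and 21.1, 20.1 and 21.1 RPKM in NPs. All NP libraries were below all ESC libraries, with little spread in either group. The log2 fold change was -1.10 (SE 0.0975, adjusted p = 2.56e-05), a 2.15-fold lower level. Zbtb14 (ENSMUSG00000049672, chr17:69383050-69390750 on the plus strand) was at 3.29, 3.92 and 3.65 RPKM in ESCs and 6.92, 5.70 and 6.47 RPKM in NPs. It rose without overlap, by a log2 fold change of 0.81 (SE 0.158, adjusted p = 0.00200). Atf1, Creb1, Sp1 and Zbtb14 passed the limit of 0.05 in all 14 fits run for this comparison.

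Yy1, a zinc finger protein that can act as activator or repressor and as a subunit of the INO80 complex, had 19.4, 19.5 and 19.3 RPKM in ESCs and 25.2, 22.5 and 21.4 RPKM in NPs. The groups did not overlap, but the log2 fold change of 0.25 (SE 0.103) missed the limit at an adjusted p of 0.0634. It passed in 2 of 14 fits, with library sizes alone (adjusted p = 0.0170) and without NP library 3 (adjusted p = 0.0392). Nrf1 had 8.02, 8.39 and 7.69 RPKM in ESCs and 8.17, 7.35 and 7.50 RPKM in NPs, and these ranges overlapped. Its log2 fold change was -0.07, with a 95% interval of -0.31 to 0.17.

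The NF-Y subunits differed from each other. Nfya, which encodes the subunit that makes the contacts specific to the CCAAT box, had a log2 fold change of 0.16 (95% interval -0.06 to 0.38, adjusted p = 0.168). Nfyc, one of the histone-fold subunits, had 0.03 (95% interval -0.33 to 0.38). Nfyb, the other histone-fold subunit, was at 16.5, 17.5 and 16.6 RPKM in ESCs and 9.13, 12.2 and 15.2 RPKM in NPs. The NP libraries spread widely below the ESC libraries, and the log2 fold change of -0.47 (SE 0.182) passed the limit narrowly at an adjusted p of 0.0492. It passed in 8 of 14 fits, and not without any single ESC library or NP library 2 (adjusted p up to 0.1225), with library sizes alone (0.1003) or with at least 10 counts in every library (0.0510). Without NP library 1 the log2 fold change was -0.30. NP library 1, with the lowest Nfyb and Atf1, had the highest sum of the neural progenitor markers, 246 RPKM against 147 and 198 RPKM in the others, and their part in the result was not tested.

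**Figure D3:**
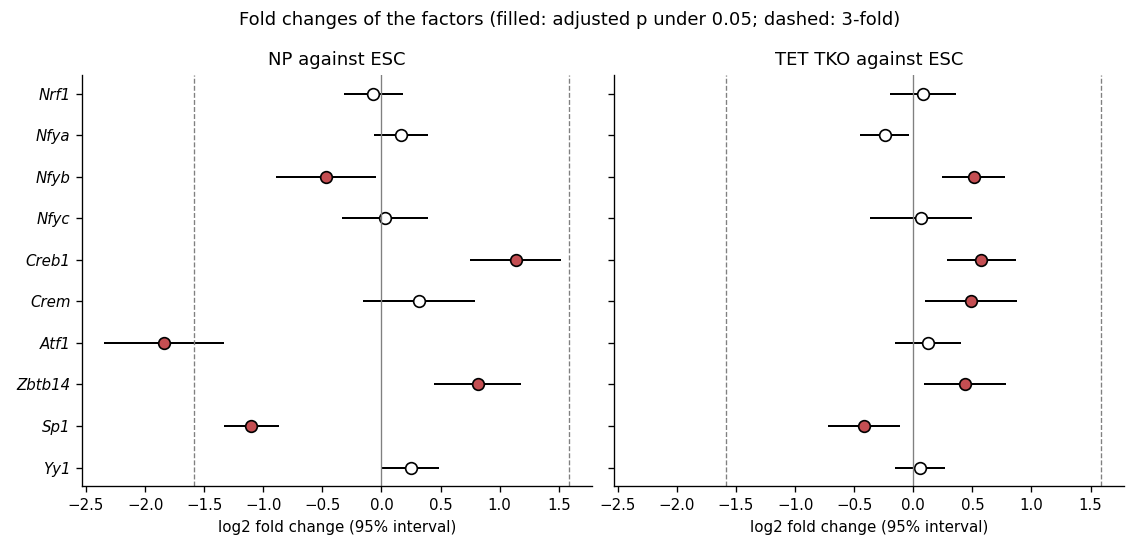
Log2 fold change of each factor gene in NPs (left) and TET TKO ESCs (right) against ESCs; bars are 95% intervals, filled points have an adjusted p under 0.05 and dashed lines mark a 3-fold change. Atf1 at -1.84 in NPs is the largest change and the only point beyond the dashed lines.

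Over the 3 groups, the span of the mean log2 level was 0.06 for Nfyc, 0.15 for Nrf1, 0.24 for Yy1, 0.39 for Nfya and 0.47 for Crem. It was 0.80 for Zbtb14, 1.01 for Nfyb, 1.10 for Creb1, 1.10 for Sp1 and 1.99 for Atf1. The median span was 0.78 over 9792 genes with at least 1 RPKM in every library. The genes whose pattern over the 9 libraries was nearest to that of Atf1, by Euclidean distance between centred log2(RPKM + 0.1) profiles, were Txlng (distance 0.395), Ddx10 (0.405) and Morc3 (0.443). Txlng averaged 7.22 RPKM in ESCs, 1.84 RPKM in NPs and 6.98 RPKM in TET TKO ESCs.

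The comparison of TET TKO ESCs with ESCs asks whether the factors change where TET dioxygenases are absent. It uses the same ESC libraries. The neural progenitor markers summed to 8.89 to 19.1 RPKM in TET TKO ESCs against 4.63 to 5.58 RPKM in ESCs, with 2 of 2 tested higher (Nes, 4.02 to 10.98 RPKM, and Sox1, 0.612 to 1.73 RPKM), and their part in these results was not tested. With edgeR, 0 of the 10 genes passed the limits of a 3-fold change and an adjusted p under 0.001. The share over all 13939 genes tested was 2.31%, and DESeq2 gave 0 of the 10 as well. An unadjusted p under 0.05 was found for 6 of the 10, but the share of all genes at that limit was not counted. At an adjusted p under 0.05, 5 of the 10 passed, against 35.5% of all genes. Of these, 4 were higher in TET TKO ESCs (Creb1, Nfyb, Crem and Zbtb14, background 22.8%), and 1 was lower (Sp1, background 12.7%). The count rested on narrow margins: it was 3 in several alternative fits and between 1 and 4 when single libraries were left out, 1 without ESC library 1 and 2 without ESC library 2, ESC library 3 or TET TKO library 1. The median absolute log2 fold change was 0.33 for the 10 genes and 0.41 for all genes tested. Depth differed between these groups too, and with the TET TKO counts thinned to the ESC depth 4 genes passed.

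Creb1 was at 4.64, 5.75 and 5.15 RPKM in the TET TKO libraries, all above the ESC libraries and all below the NP libraries. Its log2 fold change was 0.58 (SE 0.123, adjusted p = 0.00992), and it passed the limit in all 15 fits. Nfyb was at 23.9, 21.5 and 27.2 RPKM, above every ESC library, with a log2 fold change of 0.51 (SE 0.111, adjusted p = 0.0107), and passed in 13 of 15 fits. Nfyb therefore had its highest level in TET TKO ESCs and its lowest in NPs, and it took 52.8% ± 6.02 of the NF-Y sum in the former, 42.5% ± 1.51 in ESCs and 32.9% ± 6.03 in NPs.

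Sp1 was at 35.9, 37.5 and 27.4 RPKM in TET TKO ESCs, below all ESC libraries and above all NP libraries. The libraries differed widely, and the log2 fold change was -0.42 (SE 0.127, adjusted p = 0.0370). It passed in 11 of 15 fits, and not when any ESC library or TET TKO library 1 was left out. Crem was at 1.88, 1.90 and 1.94 RPKM, with a log2 fold change of 0.49 (adjusted p = 0.04996), and passed in 2 of 15 fits. Zbtb14 was at 5.34, 4.54 and 4.90 RPKM, with a log2 fold change of 0.44 (adjusted p = 0.0488), and passed in 2 of 15 fits.

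Nfya had 10.3, 10.7 and 10.1 RPKM in TET TKO ESCs against 12.1, 12.2 and 12.1 RPKM in ESCs. It did not pass with TMM scaling (log2 fold change -0.24, adjusted p = 0.0619), but passed with library sizes alone, with median-ratio size factors, with DESeq2 and after thinning. Atf1, which fell in NPs, was at 21.1, 24.8 and 21.97 RPKM and overlapped ESCs, with a log2 fold change of 0.12 (95% interval -0.15 to 0.39). Nrf1, Nfyc and Yy1 had log2 fold changes of 0.08 (95% interval -0.19 to 0.35), 0.06 (-0.36 to 0.48) and 0.06 (-0.14 to 0.26), and all 3 overlapped between the groups. With library sizes alone the median of all genes moved by -0.16 on the log2 scale in this comparison, which turns the sign of Nrf1, Nfyc, Atf1 and Yy1.

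Genes that work with or resemble the factors were described from fixed lists, each read against the background shares above and the medians of all genes, a log2 fold change of 0.04 in NPs and 0.12 in TET TKO ESCs. Of 9 tested paralogues, 2 were higher and 5 lower in NPs (median -0.51). The largest fall was that of Zfp42 (REX1), a relative of Yy1 and a marker of naive pluripotency, from 304 to 0.786 RPKM. Sp2 fell by 1.04 on the log2 scale, Creb3 rose by 1.31 and Sp4 rose by 0.55. Against ESCs, 2 of 9 paralogues were higher and 4 lower in TET TKO ESCs (median -0.08), with Zfp42 again the most reduced at 50.6 RPKM, and Atf4, a stress-response factor, up from 129 to 196 RPKM.

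Among 13 other factors of CpG-rich promoters, 5 were higher and 4 lower in NPs (median 0.21). Gabpa, the DNA-binding subunit of the ETS factor GABP, fell from 38.3 to 12.7 RPKM and the ETS factor Elk1 from 8.87 to 4.34 RPKM. The E-box factor Usf2 rose from 7.69 to 17.4 RPKM and E2f6 from 4.93 to 10.6 RPKM. In the knockout 1 of 13 was higher (median -0.09), Thap11 (26.2 to 42.0 RPKM), and 2 were lower, Hinfp and Elk1.

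Of 10 CREB coactivators and subunits of protein kinase A, the kinase that phosphorylates CREB1, 6 were higher and 1 lower in NPs (median 0.85). The regulatory subunit gene Prkar2b rose from 1.48 to 12.05 RPKM and the coactivator gene Crtc3 from 0.314 to 2.08 RPKM. Ep300, a histone acetyltransferase recruited by CREB, fell by 0.46 on the log2 scale. Crtc3 also rose in TET TKO ESCs, to 1.08 RPKM, where 4 of the 10 were higher (median 0.31) and 1, Crebbp, was lower, from 7.98 to 5.603 RPKM.

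Both NRF1 coactivators that passed the limit in NPs were lower, of 3 tested: Pprc1, a PGC-1 relative, went from 65.5 to 25.4 RPKM and Hcfc1 from 94.5 to 57.6 RPKM. With edgeR 0 of 3 passed in the knockout (0 at an unadjusted p under 0.05). Of 8 YY1 partners, 1 was higher and 5 were lower in NPs (median -0.50), led by Ino80, the ATPase of the INO80 complex, which fell from 47.6 to 7.59 RPKM. Rybp, which links YY1 to Polycomb, went from 6.31 to 2.59 RPKM in NPs and rose to 14.5 RPKM in TET TKO ESCs, where Ino80 was at 20.9 RPKM.

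Known target genes of the factors moved in both directions. Of 9 tested NRF1 targets, 1 was higher and 2 lower in NPs (median -0.18), among them Polrmt, the mitochondrial RNA polymerase, from 18.8 to 11.03 RPKM. In the knockout 4 were higher and 1 lower (median 0.25), with Tomm20, a mitochondrial import receptor, rising from 20.8 to 37.1 RPKM. Of 9 NF-Y targets, which are cell cycle genes, 2 were higher and 4 lower in NPs (median -0.33), with Cdc25b up from 11.3 to 60.0 RPKM and Ccnb1 down from 26.7 to 14.4 RPKM. The comparison of the knockout gave 1 of 9 higher, Top2a (median 0.15).

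Of 9 tested CREB targets, 3 were higher and 5 lower in NPs (median -0.37). The immediate early gene Nr4a1 fell from 18.3 to 4.77 RPKM and the kinase gene Sik1 from 35.2 to 10.1 RPKM, while Gadd45b rose from 5.65 to 12.5 RPKM and Fos from 1.86 to 3.88 RPKM. Of 8 tested in TET TKO ESCs, 2 were higher (median 0.24), Gadd45b at 15.2 RPKM and the phosphatase gene Dusp1 at 26.2 against 10.6 RPKM. Of 5 SP1 targets, 2 were higher in NPs, Vegfa (10.52 to 38.5 RPKM) and the cell cycle inhibitor Cdkn1a (22.9 to 59.4 RPKM). Cdkn1a was also higher in TET TKO ESCs, at 37.6 RPKM.

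**Figure D4:**
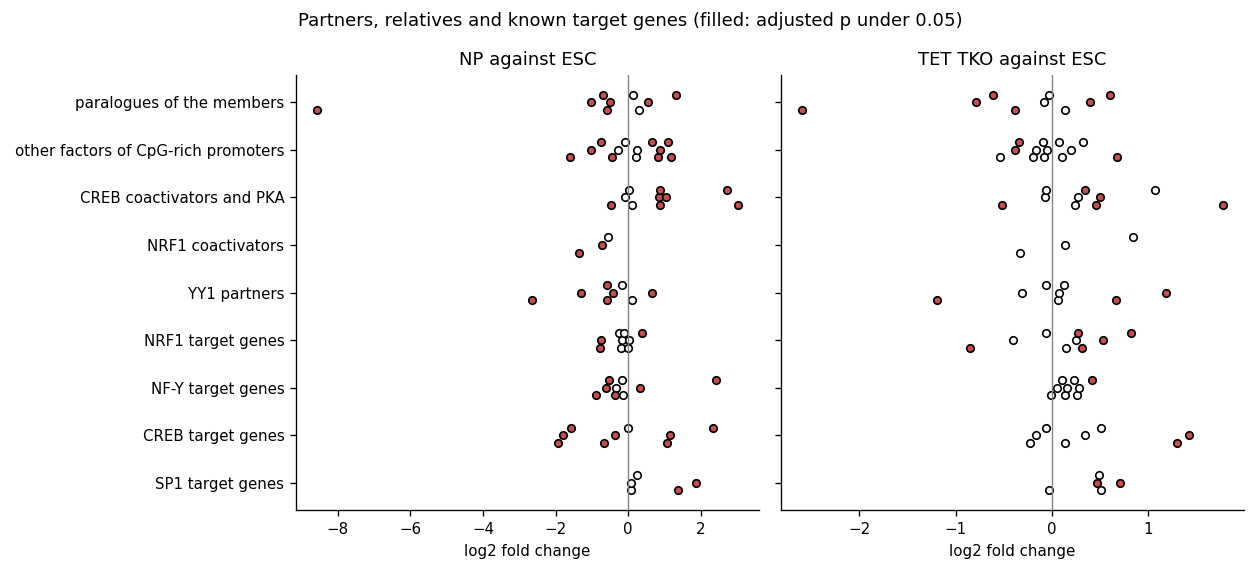
Log2 fold change of each tested gene of the lists of paralogues, partners and known targets in NPs (left) and TET TKO ESCs (right) against ESCs, on separate axes; filled points have an adjusted p under 0.05. Zfp42 at -8.57 in NPs and -2.60 in TET TKO ESCs lies farthest to the left, and most lists hold points on both sides of 0.

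The factors have a further readout in the study, Hi-TransMet, in which a bacterial DNA fragment carrying the wild type motif (WT) or a scrambled motif (Sc) of a factor was inserted in the genome and its CpG methylation read by bisulfite sequencing, without (−SssI) or with (+SssI) methylation by the enzyme SssI beforehand. Motifs of NRF1, NFY and CREB were read in 5 pools, and that of ZF5, a synonym of Zbtb14, was added after the tables had been seen. Each condition is 1 pool, so there is no test. The 95% intervals beside the differences cover counting error only, taken for 1 CpG read at the median depth. They are not intervals of the mean over CpGs. In ESCs under −SssI the fragment was methylated at 31.5% with the WT and 75.5% with the Sc motif of NRF1, a difference of -44.0 points (± 9.24; median of 113 and 590 reads per CpG), and at 24 of 25 CpGs it was lower by 10 points or more. Each pool was deposited as numbered sets of reads, called runs here. The labels do not say whether these are technical or biological replicates, and the study pooled both kinds. The size depended on the runs, which held unequal shares of each fragment. Within 2 runs with reads of both fragments the difference was -19.9 points, with the single runs at -21.2 and -6.97 points.

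For NFY the WT fragment was the more methylated in that pool, at 67.5% against 29.6%, a difference of 37.9 points (± 16.3), but the Sc value rested on a median of 33 reads and the difference within 1 run was 3.79 points. For CREB it was -3.99 points (± 4.99) and for ZF5 7.16 points (± 14.0), both within the interval. Within 4 runs the CREB difference had the other sign, at 6.745 points (5.33 to 11.6 in single runs). Under +SssI the CREB difference was 21.4 points (± 12.1) in ESCs and -20.8 points (± 13.8) in NPs, 66.6% against 87.4%, where the WT fragment had a median of 51 reads. Within runs these were 15.75 points in ESCs, with single runs at 0 to 16.8 points, and -23.65 points in NPs, with single runs at -36.7 to -3.32 points. The remaining differences in ESCs under +SssI, the remaining ones in NPs and all 4 in TET TKO ESCs lay within their intervals when reads were summed over runs. Among them was NRF1 in NPs under −SssI, at 93.1% with the WT and 90.1% with the Sc motif, a difference of 3.04 points (± 5.49). ZF5 in NPs under +SssI was at the edge of its interval, at -9.17 points (± 9.24), with 13 of 25 CpGs lower by 10 points or more. No single run held at least 10 reads of both fragments at a CpG for ZF5 or NRF1 in that pool. Their differences there could not be compared within runs, and motif and run cannot be told apart. Within runs, ZF5 in ESCs under +SssI was at -18.5 points (pooled -4.37 ± 13.8) and NFY at -9.39 points (pooled -0.595 ± 8.43), both beyond the pooled intervals. Beside these, the transcript level of Nrf1 was 8.04 RPKM in ESCs and 7.67 RPKM in NPs. In the same order, Creb1 had 3.46 and 7.58 RPKM, Atf1 20.7 and 5.77 RPKM, and Crem 1.35 and 1.68 RPKM. The sum of these 3 CREB family genes was 25.5 and 15.0 RPKM. A link between transcript level and methylation was not tested.

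**Figure D5:**
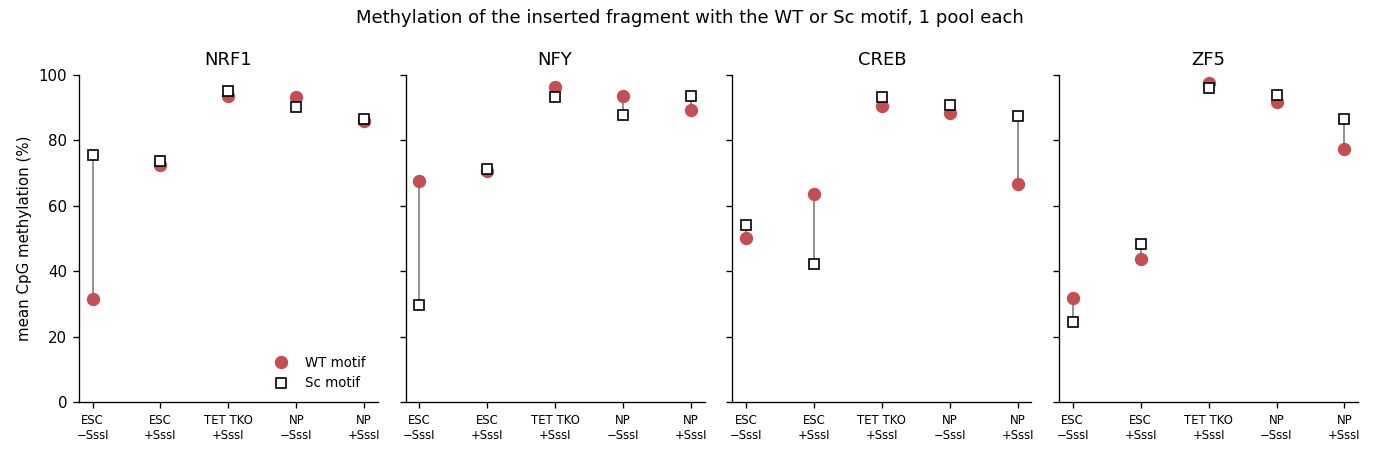
Mean CpG methylation in percent of the inserted fragment with the WT (filled) or Sc (open) motif of NRF1, NFY, CREB and ZF5 in 5 pools, 1 pool per point, reads summed over runs. NRF1 in ESCs under −SssI has the WT fragment at 31.5% below the Sc fragment at 75.5%, and in NPs under +SssI the CREB WT fragment at 66.6% lies below the Sc fragment at 87.4%.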

How the data were processed

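RNA-seq was analysed in 9 libraries and Hi-TransMet in 5 pools. Per the labels, file headers and the study's methods, the authors trimmed 50-base single-end reads, aligned them with STAR 2.6.1b (submitters' processing notes) to GRCm38 and deposited raw counts per gene from featureCounts 1.6.2 with Ensembl 89 models and no strand setting. For the pools the authors deposited, for every construct, run and CpG, the covering reads and the methylated reads as counts. Symbols were found for 51633 of 51912 gene IDs, and 0 columns lacked a sample. The 2 samples of ESCs under −SssI and of NPs under +SssI share a table each, entered as 1 pool.

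Genes with at least 1 RPKM in at least 1 library were tested per comparison with TMM scaling and the quasi-likelihood F-test in edgeR 4.0.16 (R 4.3.3). Simulated 4-fold changes were recovered in 80% (NP against ESC, 15197 genes) and 89% (TET TKO against ESC, 13939 genes) of cases at an adjusted p under 0.05, and 1.5-fold changes in 14% and 11%. The simulation changed 100 genes at each fold, a far smaller share than the 64.1% and 35.5% that passed in the data. Its recovery therefore does not give the power of the reported tests. Alternatives were library sizes alone, median-ratio size factors, DESeq2 1.42.0, other filters and fold limits, all groups in 1 fit, a replicate block, single libraries left out and thinned TET TKO counts. Added later were window-based lengths, comparison within runs and the ZF5 motif.

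The difference in methylation is the mean over CpGs with at least 10 reads in both fragments. Its interval is the binomial one at the mean methylation of each fragment, with the median reads per CpG as the number of reads. Repeated 50-base windows were counted over 22 sequences of the RefSeq GRCm38.p6 assembly on both strands, as exact matches without splice junctions. Python 3.11.15 was used for these steps. The members and gene lists were chosen with earlier results of these data known. Named are the 10 genes, all TET genes, the 3 nearest patterns to the gene with the largest change and, per list and comparison, from the 2 largest rises and 2 largest falls at an adjusted p under 0.05 with at least 1 RPKM in a group. The value of 1 listed gene is not reported here.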

Additional observations from a re-analysis of the deposited data

How the results depend on the processing

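In NPs against ESCs, the number of factor genes past the 3-fold limit was 1 under every alternative and with each library left out. It became 3 (Atf1, Creb1 and Sp1) at a fold limit of 2. In this comparison 70% of the factor genes and 56.5% of all genes tested had an absolute log2 fold change under 1. The number at an adjusted p under 0.05 was 4 to 6 over all alternatives, and 4 to 6 with single libraries left out. In TET TKO ESCs 0 genes passed the 3-fold limit under any alternative. The number at an adjusted p under 0.05, 5 in the fit reported, was 3 with library sizes alone, 3 with no filter on low values, 3 with at least 10 counts in every library, 3 with all 3 groups in 1 fit and 3 with the replicate block, and 1 to 4 with single libraries left out. Crem and Zbtb14 were the genes lost with both filters, the joint fit and the replicate block, and with library sizes alone Nfyb was lost as well and Nfya gained. Same-numbered libraries did not all deviate together: their correlations over 12932 genes were -0.11, 0.01 and -0.21 between NPs and ESCs, and -0.14, 0.47 and 0.26 between TET TKO ESCs and ESCs, where 2 of 3 pairs were above 0.1. Not every pair was, so the numbers were not taken to pair the samples, and with the replicate block the count in NPs was 5. Within runs the difference in methylation in ESCs under −SssI was -19.9 points for NRF1, 3.79 for NFY and 6.745 for CREB, and under +SssI it was -9.39 for NFY and -18.5 for ZF5; the cause was not tested. Coverage minimums of 1 and 20 reads moved no difference in methylation beyond its interval. Levels near 1 RPKM, as for Crem with 164 to 262 counts in ESC and NP libraries, and the wide intervals of Nfyc limit what changes could be seen.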
